A study of Mus musculus with 26 samples.

Results

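The genes described here encode 8 related calcium-binding proteins of neurons: hippocalcin (Hpca), its close relatives Hpcal1, Hpcal4, Ncald (neurocalcin delta), Ncs1 (neuronal calcium sensor 1) and Vsnl1 (visinin-like 1), and 2 members of the neighbouring calmodulin-like CaBP group, Caln1 (calneuron 1) and Cabp1 (caldendrin). They were chosen by name, as 8 of the 36589 gene columns of the deposited count table, in part because a low level of Hpca in prefrontal neurons was already known. Every member had counts in the table. Tests between systems therefore used the 4 systems other than prefrontal. The difference of prefrontal neurons from other systems is given as a description with no test. Classes of cells set by other genes were also tested, within each animal and system, and prefrontal cells entered those tests.

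The cells were neurons of the mouse thalamus, labelled by a retrograde tracer carried back from 1 of 5 cortical systems, picked by hand under fluorescence and read as 3' ends of transcripts tagged with molecular identifiers (UMIs, 1 per captured transcript). The table held 1972 cells on 26 plates in 3 sequencing batches. Adding up the cells of each animal within a system left 5 auditory sums (380 cells), 5 motor (484), 4 prefrontal (388), 3 somatosensory (285) and 4 visual (435). Levels are CPM, a gene's share of the UMIs of a sum scaled to the same total in each. All animals were recorded as male, with ages of 64 to 112 in the cell table's own unit, and genotype, strain and tracer were not stated in the labels. The slices of all groups had been kept with blockers of neuronal activity while the tissue was digested. Somatosensory sums were sequenced in batch 2 alone and visual sums in batch 3 alone, so these systems meet the others only within 1 batch each. All 26 plates held cells of at least 3 systems. The median cell of a sum held 52422 (auditory replicate 5) to 215798 UMIs (motor replicate 2).

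Neuronal calcium sensors are small proteins with EF hands, the loops that hold calcium. Most carry a fatty acid, myristate, on the glycine that follows the first methionine. Hippocalcin exposes this group when calcium binds, which moves the protein to membranes (the calcium-myristoyl switch). Hippocalcin is best known from hippocampal pyramidal cells, where it acts on potassium channels of the slow afterhyperpolarization. Ncs1 binds a phosphatidylinositol kinase and regulates transmitter release. Calneuron 1 lacks this lipid and is held in the membrane of the Golgi apparatus by its tail. Caldendrin binds voltage-gated calcium channels and the inositol trisphosphate receptor.

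The first 30 coding bases show this lipid site. They were read from the GENCODE vM21 transcripts (build GRCm38), with the codon after the start in capitals.
Hpca: atgGGCaagcagaacagcaagctgcggcca
Hpcal1: atgGGCaagcagaacagcaagctgcgtcct
Hpcal4: atgGGGaaaaacaacagcaagctggccccc
Ncald: atgGGGaaacagaacagcaagctgcgccct
Ncs1: atgGGGaaatccaacagcaagttgaagcct
Vsnl1: atgGGGaaacagaatagcaaactggcccca
Caln1: atgCCGttccaccatgtaaccgctggcttg
Cabp1: atgGGCaactgcgtcaagtcgccactaaga
A glycine codon (GGN) follows the start in all of these transcripts except that of Caln1, which has CCG there. A single transcript was read for each gene. Cabp1 has 7 in this annotation, and whether the form printed is caldendrin was not checked. Over their coding sequences Hpca matched Hpcal1 at 86.1% of aligned bases, Ncald at 80.0%, Hpcal4 at 73.3%, Vsnl1 at 72.6% and Ncs1 at 66.1%. Hpcal4 and Vsnl1 matched at 82.1%, and Caln1 and Cabp1 at 60.2% of the 498 bases that aligned. None of the 28 pairs shared a run of 31 bases within the last 1000 bases of the transcript compared for each gene, the end that the libraries read. Other overlaps could touch the counts: in GENCODE vM21 Hpca (chromosome 4, 129111570 to 129122036, minus strand) shares 57 bases with Tmem54 on the other strand, Caln1 (chromosome 5, 130369455 to 130847412, plus strand) overlaps A330070K13Rik on the other strand, and Ncald (chromosome 15, 37366175 to 37792570, minus strand) overlaps several gene models. The labels do not say how the counts treat strand.

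All 8 markers of thalamic relay neurons had counts in every system. Slc17a6, the vesicular glutamate transporter of these cells, averaged 528 to 899 CPM over the 5 systems and was found in at least 98.6% of the cells of each. Summed over the 8 relay markers, auditory sums held 4052 to 6047 CPM and motor sums 5245 to 7206. By edgeR, 5 of the 8 differed between these systems, against 9.46% of all genes tested. In motor neurons 2 were higher, against 5.3% of all genes, and 3 were lower, against 4.16%. Of the markers of cortical or hippocampal neurons, the cells in which Hpca is best known, Neurod6 stayed at or under 0.07 CPM on average. Slc32a1 and Dlx5, which define GABA neurons, had 0 counts in auditory sums. Summed over 8 astrocyte markers, motor sums held 326 to 557 CPM and auditory sums 146 to 249, with Gfap at 0 in both and Agt at 0 in motor sums. Summed over 8 markers of cortical or hippocampal neurons, motor sums held 165 to 224 CPM and auditory sums 66.5 to 149, with Emx1 at 0 in both and Neurod6 at 0 in auditory sums. The part of these markers in the differences between systems was not tested; without the 84 cells that held at least 3 markers of 1 other cell type and the cells marked in the cell table, 12 of 48 combinations of a member and a pair of systems passed by edgeR, against 11 in all cells.

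Hpca was highest in auditory neurons and lowest in motor and prefrontal neurons. In auditory replicates 1 to 5 it reached 335, 285, 415, 275 and 307 CPM. In somatosensory replicates 1 to 3 it was 186, 147 and 89.0, and in visual replicates 1 to 4 it was 123, 136, 132 and 122. Each auditory value lay above each value of the other systems, while somatosensory and visual sums overlapped. Motor replicates 1 to 5 held 25.96, 9.62, 107, 44.0 and 46.6 CPM, and prefrontal replicates 1 to 4 held 10.6, 5.63, 35.3 and 15.1. The motor and prefrontal ranges overlapped, and in each of these the batch 2 sum was the highest. Auditory sums averaged 323 ± 56.2 CPM (SD, n = 5), 19.4 times the prefrontal mean of 16.7 ± 13.02 (n = 4).

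**Figure D1:**
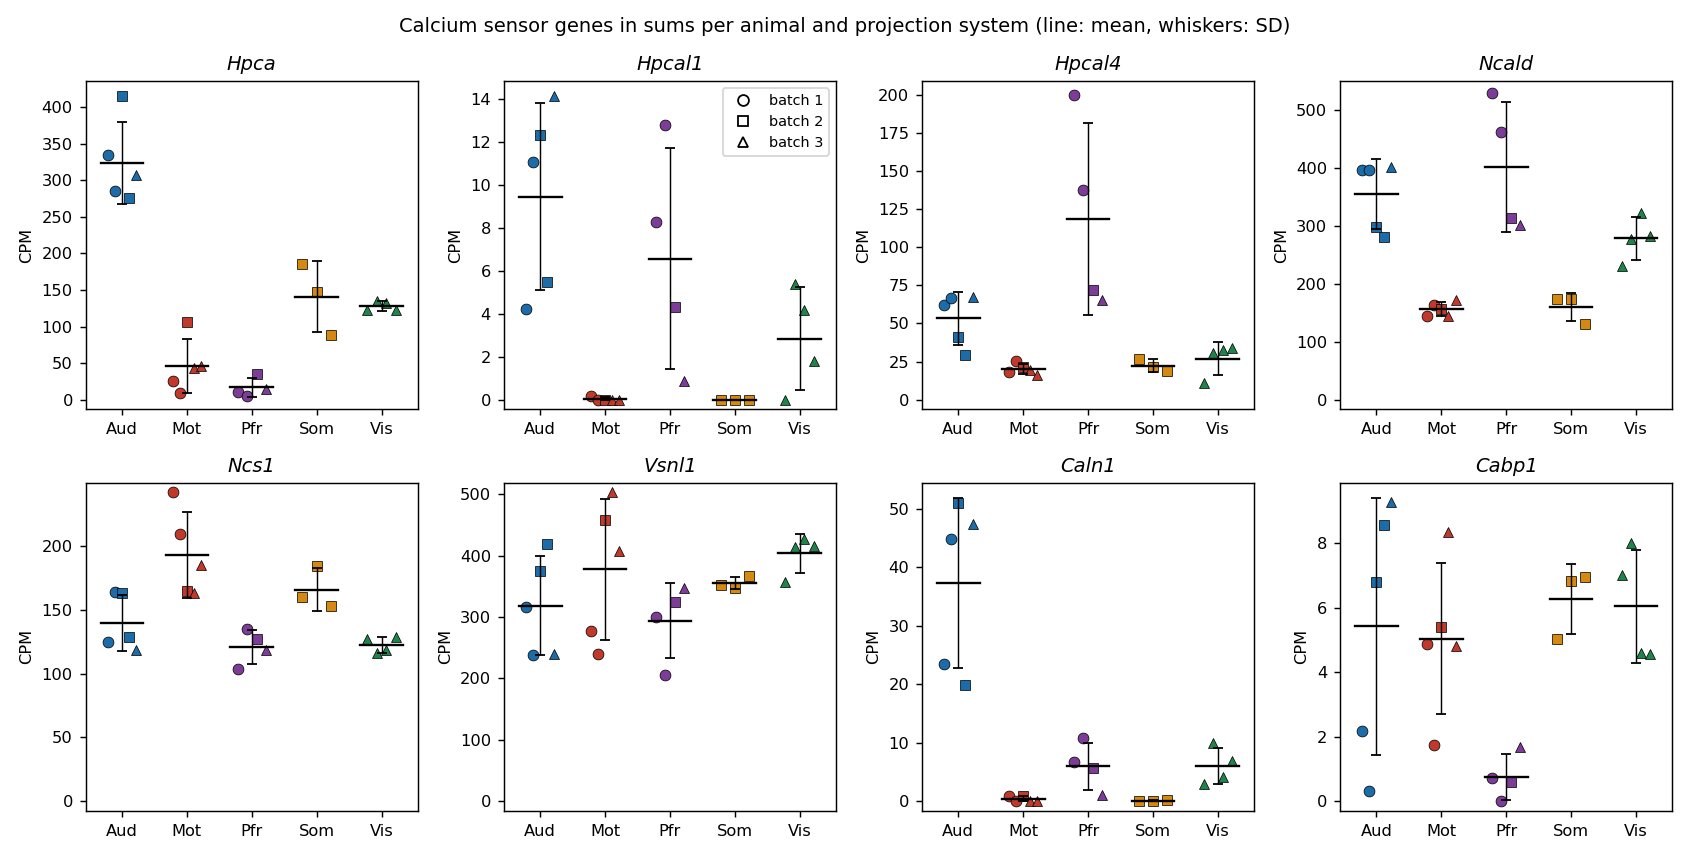
Level (CPM, linear axes from about 0) of each gene in every sum of 1 animal and 1 system, with the mean (line) and SD (whiskers, cut at 0); point shapes give the sequencing batch. Hpca and Caln1 are highest in the auditory sums, Hpcal4 and Ncald have their highest sum in prefrontal neurons, and Vsnl1 and Ncs1 vary least.

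Over the auditory, motor, somatosensory and visual sums, 6 of the 8 members differed between systems (edgeR's quasi-likelihood F-test with batch as a covariate, Benjamini-Hochberg adjustment over all genes, threshold 0.05), against 8.15% of the 16617 genes tested. The adjusted p was 2.9e-05 for Ncald, 2.4e-05 for Caln1, 0.000215 for Hpca, 0.00145 for Hpcal1, 0.0113 for Ncs1 and 0.0178 for Hpcal4. Vsnl1 (0.428) and Cabp1 (0.969) did not pass. The call on Hpcal4 was lost without auditory replicate 5 (adjusted p = 0.119) and without motor replicate 1 (0.0558). The calls on Hpcal4 (0.186) and Ncs1 (0.0944) were also lost without batch 1.

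The largest set of calls separated motor from auditory neurons, where 6 of 8 members passed, against 9.46% of all genes; 5 were lower in motor neurons, against 4.16%. The fitted log2 difference of motor minus auditory was -2.92 ± 0.35 (SE) for Hpca, -1.36 ± 0.28 for Hpcal4, -1.17 ± 0.12 for Ncald and -6.30 ± 0.77 for Caln1, with edgeR adjusted p-values of 4.2e-05, 0.00391, 9.4e-06 and 4.5e-05. Ncs1 went the other way (0.54 ± 0.12, adjusted p = 0.00619). Hpcal1 also passed (adjusted p = 0.00159), with 341 UMIs in auditory and 3 in motor sums. Within batches, the Hpca difference was -4.09 ± 0.45 in batch 1, -1.63 ± 0.40 in batch 2 and -2.72 ± 0.17 in batch 3, so its sign held in each, although batch 2 alone did not pass (edgeR adjusted p = 0.206). Ncald was lower in motor neurons in each batch as well (-1.32, -0.83 and -1.31), as were Hpcal4 (-1.53, -0.64 and -1.87) and Caln1 (-6.12, -5.15 and -9.21), and Ncs1 was higher in each (0.69, 0.24 and 0.58). Hpcal4, Ncs1 and Hpcal1 passed in no single batch, Caln1 in batch 3 alone and Ncald in batches 1 and 3. Batch 2 held 1 motor sum and batch 3 held 1 auditory sum, and these fits assume that a lone sum varies like the other groups of its batch. Hpcal4 without auditory replicate 5 had an adjusted p of 0.0553. Vsnl1 (0.31 ± 0.14, adjusted p = 0.186) did not pass, and its within-batch differences were -0.06, 0.27 and 0.96, the last with an adjusted p of 0.0137; without auditory replicate 1 its adjusted p was 0.0341.

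Between somatosensory and auditory neurons 4 of 8 members passed, against 5.9% of all genes, and each was lower in somatosensory neurons. These were Hpca (-1.76 ± 0.45, adjusted p = 0.027), Hpcal1 (0.0114), Ncald (-0.88 ± 0.16, adjusted p = 0.00268) and Caln1 (0.000438). The Hpca call was lost without auditory replicate 3 (edgeR adjusted p = 0.0637), motor replicate 3 (0.0825), somatosensory replicate 2 (0.0835) or somatosensory replicate 3 (0.11), with differences of -1.94 to -1.15. The same call was lost without the batch term (-1.13, edgeR adjusted p = 0.126) and without batch 3 (-1.76, 0.109). With cells summed per sort date, the calls on Hpca (-2.03) and Hpcal1 (-9.95) were lost. Hpcal4 passed without the batch term (-1.195, edgeR adjusted p = 0.0354). Between visual and motor neurons Ncald alone passed by edgeR (0.76 ± 0.15, adjusted p = 0.0296), against 0.403% of all genes. Leaving out any of 6 sums ended the call (edgeR adjusted p of 0.0524 without auditory replicate 5, 0.229 and 0.114 without motor replicates 4 and 5, and 0.0723, 0.103 and 0.06 without visual replicates 2, 3 and 4). DESeq2 called 3 of 8 in this pair, with Hpcal1 (adjusted p = 0.00765) and Caln1 (0.0132) among them. By edgeR, Caln1 also passed without flagged cells and cells with markers of other types (adjusted p = 0.0461). It passed as well in a fit on all 5 systems (0.0256). Without the batch term Hpcal1 (0.0208), Caln1 (0.0101) and Ncs1 (0.0206) passed by edgeR. Between visual and auditory neurons no member passed, against 0.945% of all genes, with 4 of 8 at an unadjusted p under 0.05 by edgeR and 0 passing by DESeq2. Without motor replicate 3, Hpca passed here (-1.83, adjusted p = 0.0262) and between visual and motor neurons (1.74, adjusted p = 0.0245).

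Between somatosensory and motor neurons no member passed by edgeR (0.0% of all genes did); Hpca alone had an unadjusted p under 0.05 (log2 difference 1.17 ± 0.44, p = 0.0168), and DESeq2 called 0 of 8. Visual and somatosensory neurons gave 0 calls among the members by edgeR, 1 by DESeq2 (Caln1, adjusted p = 0.0236) and 3 at an unadjusted p under 0.05, against 0.0421% of all genes called by edgeR. These systems share no batch with each other, so batch and system cannot be told apart in that pair beyond the fitted batch term.

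**Figure D2:**
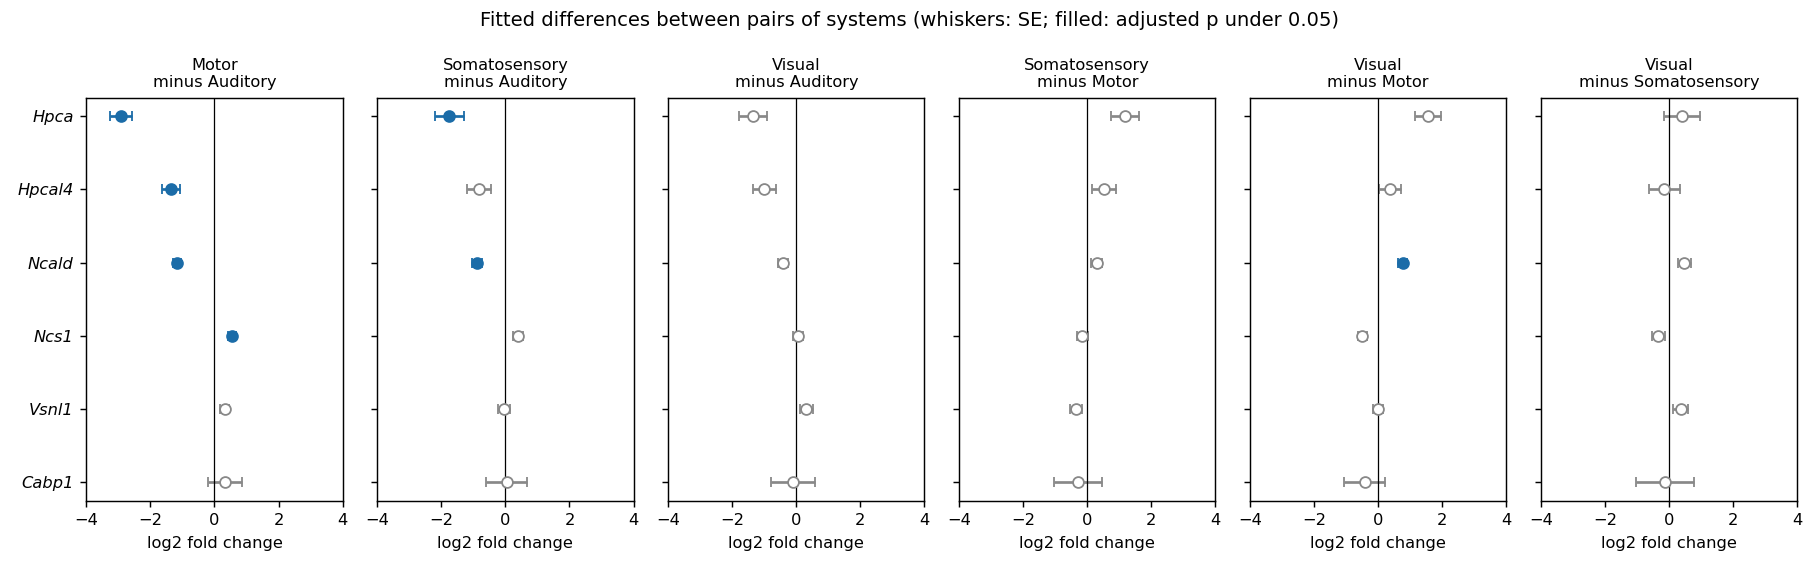
Fitted log2 differences (x axis) with SE (whiskers) of 6 genes in each pair of systems; filled points have an adjusted p under 0.05. Hpca, Hpcal4 and Ncald are lower and Ncs1 is higher in motor than in auditory neurons, while Vsnl1 and Cabp1 pass in none of the pairs; Hpcal1 and Caln1 are left out because some systems hold 0 to 3 UMIs.

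Hpcal4 and Ncald had the same order of systems at their ends. Hpcal4 was 200, 138, 71.9 and 65.5 CPM in prefrontal replicates 1 to 4, 62.3, 66.8, 40.8, 29.4 and 67.6 in auditory replicates 1 to 5, and 16.4 to 25.3 in motor sums. Ncald was 531, 462, 314 and 303 CPM in prefrontal sums, 281 to 402 in auditory, 231 to 322 in visual, 131 to 174 in somatosensory and 144 to 172 in motor sums. Visual and somatosensory sums of Ncald did not overlap; every other neighbour in its order did. The highest mean was 5.88 times the lowest for Hpcal4 and 2.58 times for Ncald. Ncs1, by contrast, was highest in motor sums, at 193 ± 33.5 CPM, and lowest in prefrontal sums, at 121 ± 13.4, a ratio of 1.60, and Vsnl1 ranged only from 294 ± 61.6 in prefrontal to 403 ± 32.0 in visual sums, a ratio of 1.37.

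Hpcal1 and Caln1, 2 genes on different chromosomes, shared their pattern. Hpcal1 was 4.24, 11.1, 12.3, 5.49 and 14.1 CPM in auditory replicates 1 to 5 and 8.27, 12.8, 4.33 and 0.85 in prefrontal replicates 1 to 4. Visual replicates 1 to 4 held 0, 5.40, 4.17 and 1.80 CPM, and the 5 motor sums held 3 UMIs in all. Somatosensory sums held 0 Hpcal1 UMIs, so that the mean of the auditory sums was at least 110.8-fold higher when set against a floor of 3 counts over the group; for pooled cells the lower limit of the ratio from counting error was 88.4 (95%). Caln1 was 23.5, 44.9, 51.0, 19.97 and 47.5 CPM in auditory sums, at most 10.8 in any other sum, and 3 UMIs in all somatosensory sums, an auditory to somatosensory ratio of 446 with a counting interval of 152 to 2166 (95%). Few cells carried these genes: after each cell was thinned to 20000 UMIs, Hpcal1 was found in 4.44% ± 2.12 of cells in auditory sums (SD, n = 5; 5.52% unthinned) and in 0 of 285 somatosensory cells, which allows a share of cells with a UMI, not of cells that express the gene, of up to 1.05%, by counting error only. Over the 21 sums the levels of Hpcal1 and Caln1 had a Pearson r of 0.915, and 0.819 after each system's mean was subtracted, on a log2(CPM + 1) scale; depth and animal are shared by both genes, and this is a description. No type of cell known to lack these genes was set apart here, so free RNA was not measured against them. Cabp1 stayed at 9.27 CPM or less in every sum.

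The share of cells with a UMI showed whether a level came from many cells or from few. At 20000 UMIs per cell, Hpca was found in 79.1% ± 7.07 of auditory cells (n = 5 sums), 66.6% ± 11.3 of somatosensory (n = 3), 59.5% ± 2.78 of visual (n = 4), 31.4% ± 21.4 of motor (n = 5) and 13.7% ± 8.76 of prefrontal cells (n = 4). Without thinning these were 85.5, 77.5, 67.3, 43.0 and 21.4%. The median cell held no Hpca UMI in motor and prefrontal neurons, and in prefrontal neurons 81.9% of the Hpca UMIs lay in the tenth of cells with most of them.

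A second comparison used cell classes that the members did not define. Cells were classed by whichever of Tnnt1, Necab1 and Calb2, 3 genes named in earlier results on these cells, had the highest count: 756 Tnnt1, 532 Necab1 and 611 Calb2 cells, with 73 in none. Classes were compared within the same animal and system (57 sums of at least 5 cells, each animal and system a block). Prefrontal sums were included, since the block removes the level of each system. Hpcal1 did not pass the filter on low counts, so 7 members were tested.

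From the Tnnt1 to the Calb2 class, 4 of 7 members passed, against 12.1% of the 12035 genes tested. Hpcal4 was higher in Calb2 cells by 2.27 ± 0.36 on the log2 scale (edgeR adjusted p = 1.1e-05), in 16 of 17 sums that held both classes. Its median level was 14.1 CPM in Tnnt1 and 63.4 CPM in Calb2 sums. Ncald was higher by 0.85 ± 0.12 (adjusted p = 1.2e-06; 15 of 17), from a median of 162 to 390 CPM. Ncs1 went down, by 0.65 ± 0.12 (16 of 17), from 161 to 101 CPM. Caln1 held 1774 UMIs in 606 Calb2 cells and 6 in 754 Tnnt1 cells. Hpca itself did not pass, with a log2 difference of -0.65 ± 0.43 (adjusted p = 0.39) and with Calb2 cells higher in 8 and lower in 9 of 17 pairs. Vsnl1 (-0.32 ± 0.13, adjusted p = 0.104) and Cabp1 did not pass either; without visual replicate 1, Vsnl1 passed (adjusted p = 0.047). Of the 8 relay markers, 4 were lower in Calb2 than in Tnnt1 cells, against 5.74% of all genes tested. Their part in these differences was not tested.

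The Necab1 class lay between them for Hpcal4 and Ncald. From Tnnt1 to Necab1, 3 of 7 members passed, against 5.4% of all genes: Hpcal4 (1.36 ± 0.34, adjusted p = 0.0083), Ncald (0.40 ± 0.12, adjusted p = 0.0284) and Caln1 (3.93 ± 0.95, adjusted p = 0.00723), whose fitted fold depends on the prior count because Tnnt1 sums held almost no UMIs of it. Without the prefrontal sums, the calls on Hpcal4 (edgeR adjusted p = 0.128) and Ncald (0.286) were both lost, with the direction unchanged. The Ncald call was also lost when auditory replicate 3 or 5, prefrontal replicate 2, 3 or 4, or visual replicate 4 was left out, with adjusted p-values of 0.0514 to 0.0749. It was lost as well with at least 10 cells per class sum (edgeR adjusted p = 0.101). The same held when the highest class gene had to exceed 2 times the second (0.0502). Leaving out flagged cells and cells with markers of other types also ended it (0.0547). From Necab1 to Calb2, 4 of 7 passed, against 12.5% of all genes: Ncald (0.45 ± 0.12) and Caln1 (3.18 ± 0.85) were higher, and Ncs1 (-0.51 ± 0.12) and Vsnl1 (-0.62 ± 0.12) were lower in Calb2 cells. With at least 10 cells per class sum, Caln1 did not pass here (2.36, edgeR adjusted p = 0.0864). Vsnl1 was lower in 18 of 18 sums that held both classes (edgeR adjusted p = 0.000474). Hpcal4 (0.91 ± 0.34, adjusted p = 0.0686) passed without motor replicate 2 (0.0449) or visual replicate 2 (0.0408).

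**Figure D3:**
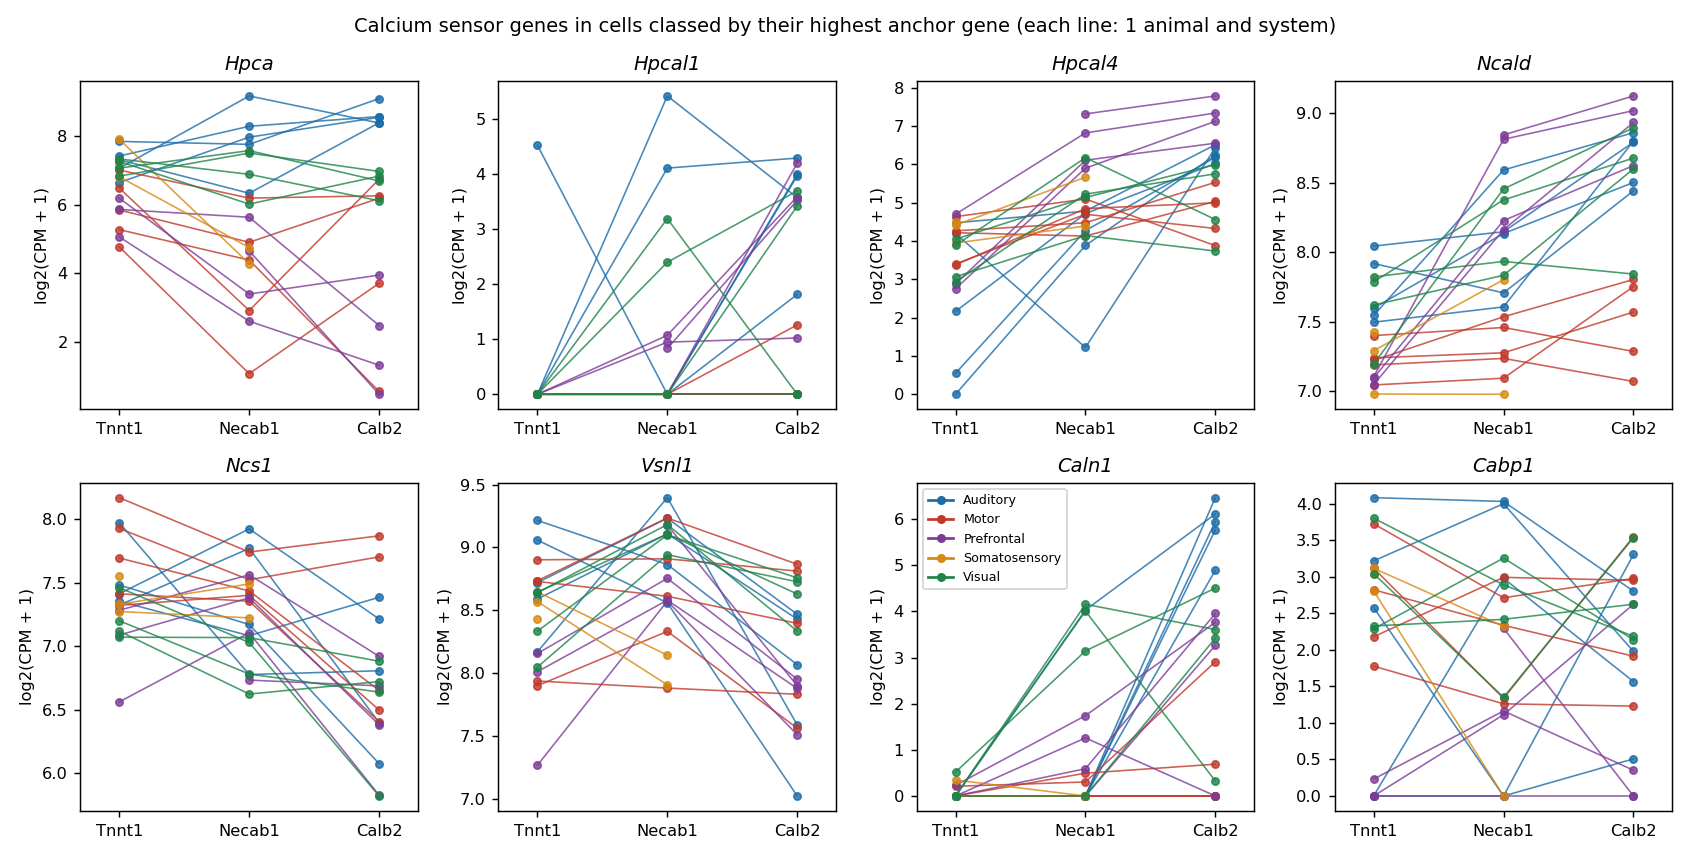
Level of each gene, as log2(CPM + 1), in the cells of the Tnnt1, Necab1 and Calb2 classes; each line joins the sums of 1 animal and system, coloured by system. Hpcal4 and Ncald rise from Tnnt1 to Calb2 cells in most animals and Ncs1 falls, while Hpca is high in the Calb2 cells of auditory animals and low in those of prefrontal animals.

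The class levels of Hpca were read in each system. In auditory neurons its median level was 158 CPM in Tnnt1 and 376 CPM in Calb2 cells, in prefrontal neurons 57.3 and 3.0, in motor neurons 56.7 and 72.2 and in visual neurons 143 and 108. The class difference was fitted in the auditory, motor and visual systems at 1.34 ± 0.39, -0.90 ± 0.43 and -0.48 ± 0.44. In motor neurons the medians and the fit went opposite ways, so no direction is read there. Motor Calb2 sums held 7 to 15 cells, with 1 Hpca UMI in replicate 1. The interaction did not pass for any member (0 of 8 by edgeR, with 0 by DESeq2; 4 at an unadjusted p under 0.05; Hpca unadjusted p = 0.0021, adjusted p = 0.482), against 0.0511% of all genes. The median of all genes shifted by 0.22 in auditory and -0.22 in motor neurons in this contrast. Within single systems 4 of 8 members passed in auditory neurons (3.02% of all genes: Hpcal4, Ncald, Vsnl1 and Caln1), 0 in motor neurons (0.241%; 0 by DESeq2, 2 at an unadjusted p under 0.05) and 1 in visual neurons (0.438%; Caln1). Whether these systems differ in a class effect was tested only by that interaction.

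The clusters the authors gave, made from the same counts, are described with no test. Aud_3, a cluster of 63 auditory cells, held Hpca at 542 CPM, Hpcal1 at 39.5, Hpcal4 at 143, Ncald at 489 and Caln1 at 226, and the lowest Vsnl1 (125) and Ncs1 (58.0) of the 17 clusters. Caln1 was found in 60.3% of its cells. It held 89.4% of the Caln1 UMIs of auditory cells and 15.1% of all their UMIs. Motor clusters differed in Hpca. Mot_2 (152 cells) held 153 CPM with 90.8% of cells detected, Mot_4 (69 cells) held 56.8 with 62.3%, and Mot_1 and Mot_3 held 11.1 and 11.5 with 18.6 and 19.5%. Somatosensory clusters held 225 CPM in Som_2, 108 in Som_1 and 40.6 in Som_3. In prefrontal clusters Pfr_3 and Pfr_4, Hpca was 1.6 and 2.3 CPM while Hpcal1 was 13.5 and 8.7. In Pfr_1 and Pfr_2, Hpca was 42.5 and 44.7 CPM and Hpcal1 was 0 and 1.2. Within joint cluster 2, which mixes systems, Hpca was 148 CPM in motor, 235 in somatosensory and 193 in 14 prefrontal cells. Within joint cluster 4 it was 9.8 in motor and 27.7 in somatosensory cells. Joint cluster 5 held 300 CPM in auditory and 49.7 in 29 prefrontal cells. Joint cluster 1 held 34.7 in motor, 30.8 in prefrontal and 103 in somatosensory cells. Motor and visual cells held 86.8 and 130 in joint cluster 3 and 55.1 and 126 in joint cluster 6. In joint cluster 7, motor, prefrontal and visual cells held 22.7, 17.6 and 10.3.

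**Figure D4:**
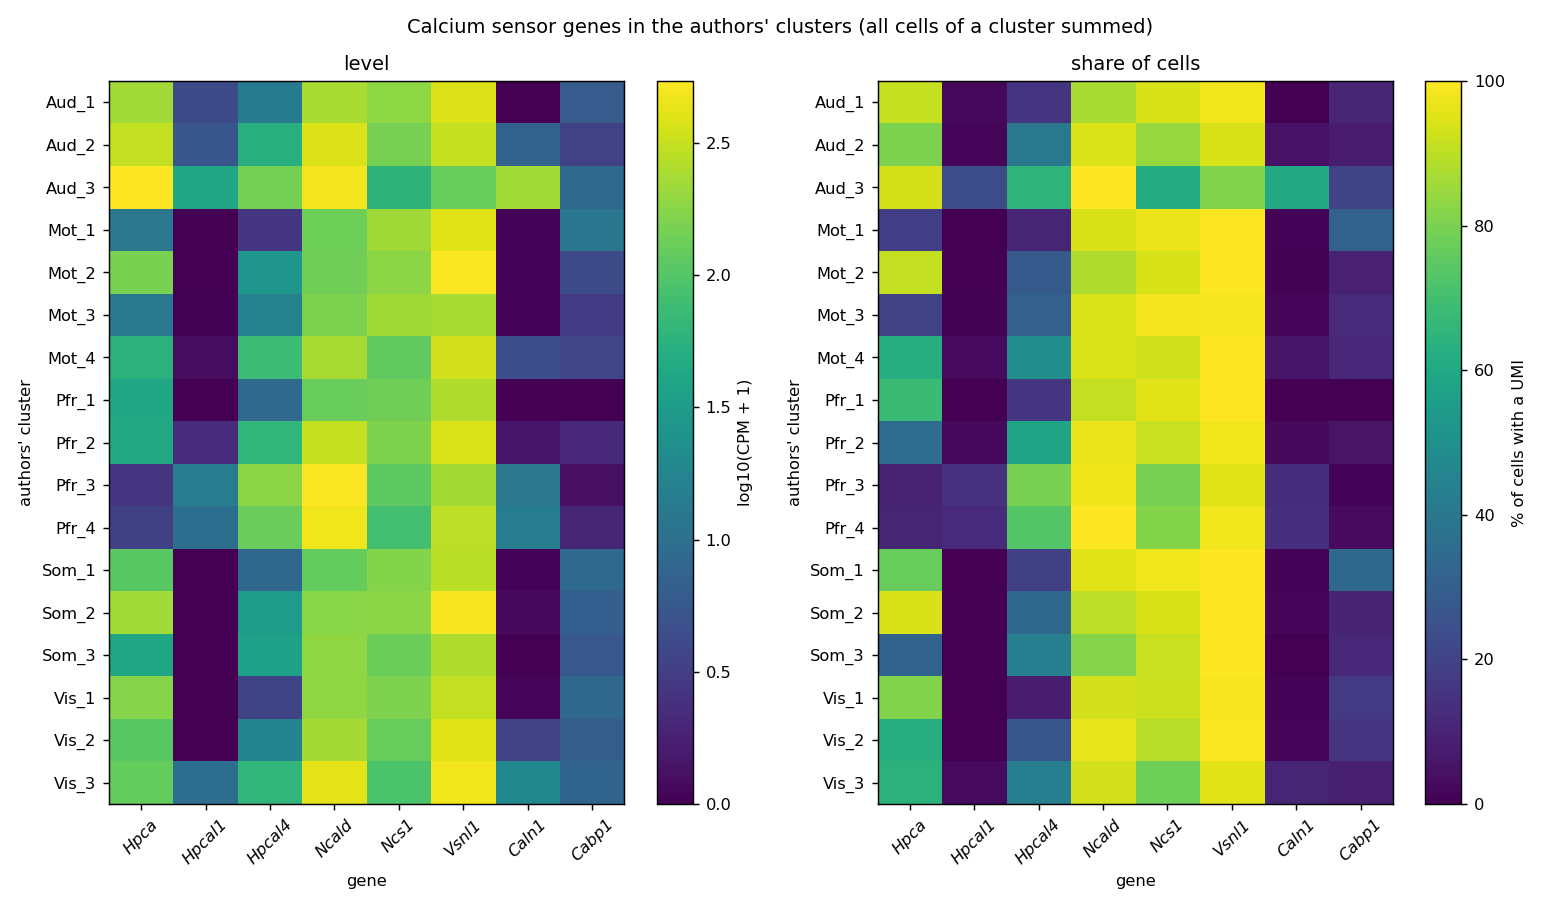
Left: level of each gene as log10(CPM + 1) in the authors' 17 clusters; right: share of cells with at least 1 UMI, in percent, not thinned to equal depth. Hpca is brightest in Aud_3 and dark in Mot_1, Mot_3, Pfr_3 and Pfr_4, and Caln1 and Hpcal1 are brightest in Aud_3.

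In prefrontal neurons, described with no test since this contrast was known, the fitted log2 difference from the mean of the other systems was -2.85 ± 0.36 for Hpca, 1.77 ± 0.24 for Hpcal4, 0.72 ± 0.12 for Ncald and -0.40 ± 0.11 for Ncs1. It was -2.68 ± 0.71 for Cabp1, which held 27 UMIs in all prefrontal sums, and -0.17 ± 0.13 for Vsnl1. For Hpcal1 it was 3.68 ± 0.90 and for Caln1 1.48 ± 0.64. Within batches 1 to 3 the difference was -3.23, -2.31 and -3.02 for Hpca, 2.16, 1.47 and 1.02 for Hpcal4, 0.99, 0.67 and 0.19 ± 0.17 for Ncald, and -0.61, -0.34 and -0.23 for Ncs1. For Cabp1 it was -2.53 ± 1.87, -3.43 and -2.09. Batches 2 and 3 held 1 prefrontal sum each.

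Other genes of the pathway were read from a list chosen with earlier results known. Of 11 further calcium sensors and CaBPs, 4 passed the filter, and 2 of these 4 differed in the 4 systems, against the 8.15% of all genes given above. Kcnip1, a subunit of A-type potassium channels, was lower in motor than in auditory neurons (log2 -5.37 ± 0.90, edgeR adjusted p = 0.000778) and Kcnip2 was as well (-2.22 ± 0.52, adjusted p = 0.00971). Of 23 tested binding partners of the sensors, 3 differed among the systems, Trpc5, Cacna1c and Chrna4, against the same 8.15%. Trpc5, a channel that Ncs1 is known to bind, was lower in motor neurons (-3.799 ± 0.59), and Cacna1c, an L-type calcium channel, was higher by 0.85 ± 0.14. The 3 calmodulin genes and both myristoyl transferases did not pass among the 4 systems. In the class comparison Kcnip1 rose from Tnnt1 to Calb2 cells by 5.71 ± 0.76 and Kcnip3 fell (-1.504 ± 0.34). There 3 of 4 further sensors, 1 of 3 calmodulin genes and 7 of 21 binding partners passed, against 12.1% of all genes. The calmodulin gene was higher in Calb2 cells, as were 2 of the partners, and 5 partners were lower.

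Among genes with a mean of at least 10 CPM, those whose log2 CPM tracked Hpca most closely over the 21 sums were Ppp1r1b (r = 0.944), a regulator of protein phosphatase 1, Rbms3 (0.874), Clmp (0.871), Adora1 (0.858), the adenosine A1 receptor, and Kctd1 (0.857). The lowest were Dnajc21 (-0.886), Cdk18 (-0.882), Asph (-0.865), Mtfp1 (-0.860) and Cript (-0.853). After each system's mean was removed, the correlation of the first 5 was 0.537 (Kctd1) to 0.832 (Ppp1r1b) and that of the last 5 was -0.756 (Dnajc21) to -0.599 (Cdk18). The sums share depth and batch, so these are descriptions. Ppp1r1b averaged 22.1 CPM in auditory and 4.04 in prefrontal sums. Among the members, the correlation with Hpca was 0.298 for Vsnl1 over all sums, 0.644 after each system's mean was removed and -0.0077 without prefrontal sums. For Hpcal4 these were -0.307, -0.267 and 0.563, so its sign turned without prefrontal sums.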

How the data were processed

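The authors deposited UMI counts, not normalized, for each gene in each cell, beside a cell table that gives plate, animal, system, batch and cluster. Per the submitters' processing notes, the tools were STAR 2.5.3, Picard 1.12 and cutadapt 1.16 and the build was mm10; the annotation and the counting rule are not given in the sources used here. The members and gene lists were chosen with earlier results of these data known. The 8 members, genes of the fixed lists and the 5 genes with the highest and the 5 with the lowest correlation with Hpca are named.

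Counts were summed per animal and system (4317156 to 20322775 UMIs, at least 10 cells) and tested in R 4.3.3 with edgeR 4.0.16 (TMM, filterByExpr, trended dispersion, quasi-likelihood F-test, Benjamini-Hochberg at 0.05), with 11 residual degrees of freedom for systems and 35 for classes. Spread between sums was the error. DESeq2 1.42.0, other filters, normalizations, cell selections and leaving out each sum were tried. Cell barcodes came from a fixed set: 372 of 375 occurred on more than 1 plate. Cells were hand-picked, so doublets were not called. The script was tested on simulated data. The interval on the UMI ratio covers counting error only. The 20 cells flagged in the cell table had no cluster and stayed in the sums. One animal identifier held auditory (replicate 5) and visual cells (replicate 1) from different sort dates, kept as separate sums.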

Additional observations from a re-analysis of the deposited data

Results flagged for a closer look

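Of 32 sets of values (1 member in the 4 or 5 sums of a system), 2 held a sum that stood apart by Dixon's test, which chance marks in about 1 of 20 sets, so 2 of 32 is near the number that chance gives. Hpcal4 was 10.6 CPM in visual replicate 1, against 30.7 to 33.9 in the other 3 visual sums. That sum belongs to the animal identifier that also occurs among the auditory sums. Hpcal1 was 0.172 CPM in motor replicate 1, which is 3 UMIs, and 0 in the other 4 motor sums; with 4 values tied at 0, any single count would have stood apart in this way.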

How the results depend on the processing

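No paired analysis of systems by replicate number was possible because the labels give no shared replicate numbers; sums per plate and system, blocked by plate, were not fitted. Of the 48 member and pair combinations, 11 were called, and 9 to 14 under the alternatives within 1.5 times that count; 19 were called without the filter on low counts, 18 without the batch term and 7 with cells summed per sort date, while leaving out single sums gave 9 to 12. The number of members that differed over the 4 systems was 4 to 6 throughout. In the class comparison 11 were called, 17 without the filter and 7 when the highest anchor had to exceed 2 times the second; leaving out single sums gave 7 to 12, and Caln1 was not tested in the fits with 7. Without the replicate block the class count was 11. The interaction gave 0, and 1 without the filter (Hpca, edgeR adjusted p of 5.6e-08 against 0.482); the fits without the filter gave much smaller p-values for this well expressed gene, the cause was not worked out, and their calls are not relied on; leaving out single sums gave 0 to 0. The differences of prefrontal from other neurons turned sign within batch 3 for Hpcal1 (-0.037) and Caln1 (-1.47). Leaving out both sums that share an animal identifier, an alternative chosen after seeing the data, gave 11 calls between systems. The cause of these changes was not tested. Depth limits Hpcal1, Caln1 and Cabp1, whose levels rest on few UMIs per sum.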
